A study of Mus musculus with 9 samples.

Results

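The genes described here encode kinesins, the motor proteins that move along microtubules by hydrolysing ATP. They were taken by name, as every gene whose symbol is Kif followed by digits and, where present, a letter. The table of 55414 genes held 39 such names, and 38 of them had at least 10 counts summed over the 9 libraries and were tested among 25128 genes. Kif12, with 2 summed counts, was left out. The naming pattern does not take the minus-end directed Kifc motors, which are given with the partner genes. Levels were measured by RNA-seq in round spermatids (RS), the haploid male germ cells that follow meiosis, sorted from the testes of adult mice. The labels give the genotype as WT, and per the study's methods the sorted animals carried Stra8-iCre and a Cre-dependent tdTomato reporter on a C57Bl/6 background, with RS gated by tdTomato and light scatter. All cells were incubated for 24 h. The study's methods list a culture medium with lactate and pyruvate for meiotic germ cells and do not name one for RS. The 3 groups of 3 libraries received vehicle (0.15% DMSO), 24 mM oxamate with the same DMSO, or 24 mM oxamate together with 0.3 mM octyl-L2HG in the same DMSO. Oxamate inhibits lactate dehydrogenases and was used to lower 2-hydroxyglutarate, and octyl-L2HG is a cell-permeable form of its L enantiomer. Libraries are numbered as labelled: vehicle 1 to 3, oxamate 4 to 6, and both compounds 7 to 9.

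Most kinesins walk toward the plus end of microtubules and carry vesicles, organelles or protein complexes. Others build and take apart the spindle in dividing cells, and others move cargo along, or control the length of, the axoneme of cilia and flagella. In the testis, kinesins act in the meiotic divisions that precede the RS stage and in the sperm tail and the manchette that are built after it. KIF17 has a further described role in RS, where it carries the coactivator ACT (gene Fhl5) of the transcription factor CREM between nucleus and cytoplasm.

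Library totals were between 32339533 and 39888396 counts. All 12 RS marker genes were detected, and their summed level was 100686 to 104668 normalized counts with vehicle, 95454 to 96762 with oxamate and 90560 to 92126 with both compounds. The largest falls in the list were those of the late transcripts Tnp1, Tnp2, Prm1 and Prm2, while the acrosome genes Acrv1, Acr and Spaca1 had higher means in the same order (9015, 9325 and 10854 for Acrv1). The 8 spermatocyte markers summed to 9093 to 10701 with vehicle, 8683 to 9760 with oxamate and 10130 to 10327 with both compounds, so that oxamate and both compounds did not overlap. Spdya alone carried this difference, with group means of 3241 with oxamate and 4189 with both compounds, while Sycp1 had 2359 and 2485, Sycp3 824 and 798, and Spo11 1702 and 1663. The 7 dividing-cell markers (Mki67, Top2a, Ccnb1, Cdk1, Bub1, Plk1, Aurkb) summed to 27217 to 31272, with overlapping groups. Their means did not share a direction. With vehicle, oxamate and both compounds Ccnb1 had 5345, 4478 and 4300, Cdk1 748, 551 and 572, Mki67 597, 580 and 804, and Bub1 5388, 5667 and 5958. Sertoli markers were near 0 (Sox9, Wt1, Amh, Cldn11, Gata4, Rhox5) except Inha. Marker sums of other cells were low, and several differed between groups. With vehicle and with oxamate the spermatogonium sum was 258 to 281 and 287 to 300, the leukocyte sum 129 to 162 and 112 to 124, and the Leydig sum 28.4 to 38.2 and 19.7 to 27.6. The Leydig sum was 31.4 to 40.3 with both compounds, again above oxamate. With vehicle and with both compounds the endothelium sum was 125 to 160 and 162 to 174, and the Sertoli sum 115 to 144 and 149 to 183. The part of these lists in the kinesin results was not tested. In bulk samples, fewer cells of a kind and less RNA per cell cannot be told apart. The study reports that the cells were incubated in triplicates, and nothing in the labels says that libraries came from separate animals. P-values therefore measure only the spread between these libraries. Oxamate library 4 stood apart from oxamate 5 and 6, which were close to each other. For 22 of the 29 kinesins with a mean of at least 100 normalized counts, its value lay farther from the nearer of these libraries than they lay from each other, a share of 75.9% against 68.9% of all 10715 genes at that level. The value was the lowest of the group in 13 of the 22 and the highest in 9. By the same measure vehicle 1 stood apart for 34.5% of these kinesins and library 7 for 48.3%. The shares of all genes at that level were 45.1% and 44.8%. In both vehicle 1 and oxamate 4, Kif3a, Kif2a, Kif20b, Kif24, Kif15, Kif16b and Kif27 stood apart as lowest of the group and Kif19a and Kif22 as highest. Calls lost or added without oxamate 4 are named beside each pairwise comparison.

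Kinesin transcripts in RS were dominated by a few genes. Levels between genes are compared as normalized counts per kb of the longest annotated transcript, and on this scale Kif2b was first, followed by Kif9, Kif17, Kif27, Kif2a, Kif3b, Kif20a and Kif18b. Kif2b, Kif9 and Kif17 took 46.4% of all kinesin counts, and these 8 genes took 84.1%. Kif2b encodes a microtubule depolymerase of the same subfamily as Kif2a and Kif2c. Its level was 32040, 32020 and 34421 normalized counts with vehicle, 31667, 34143 and 35326 with oxamate, and 32371, 31125 and 30042 with both compounds. Kif9, a kinesin of the sperm flagellum, had 25566, 24128 and 25461 with vehicle, 26648, 25085 and 24834 with oxamate, and 25232, 25869 and 26402 with both. The 3 groups overlapped for both genes, and neither gene was called in any comparison. The log2 fold change of Kif9 was 0.03 ± 0.06 (SE) for oxamate against vehicle, with an adjusted p of 0.861 in edgeR's quasi-likelihood test.

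Kif2a, a depolymerase that also acts outside the spindle, had 16350, 18483 and 17797 normalized counts with vehicle, 14808, 17240 and 17977 with oxamate, and 20582, 19434 and 19084 with both compounds. Its libraries with both compounds lay above all others, and no comparison called it. Against oxamate its log2 fold change was 0.22 ± 0.071 (SE, adjusted p = 0.0549 in edgeR's quasi-likelihood test). Some alternative settings called it there, among them the DESeq2 test. Kif20a, which acts in cytokinesis, had 6968, 6827 and 6554 with vehicle, 7532, 6569 and 6387 with oxamate, and 7584, 7647 and 7243 with both. Kif18b, a plus-end motor of the spindle, had 5049, 4335 and 4773, then 5981, 4678 and 4609, then 5823, 5579 and 5298 in the same order. For both genes oxamate 4 was the high library of its group, above every vehicle library. At the other end, Kif5a, Kif1a, Kif1c, Kif7, Kif3c and Kif26b had means below 100 normalized counts, and Kif19b, Kif28 and Kif26a reached at most 3.79 in any library. Kif5a, Kif5b and Kif5c, and Kif19a and Kif19b, are close relatives, so the split of reads between them is uncertain. Counts per gene do not separate isoforms.

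**Figure D1:**
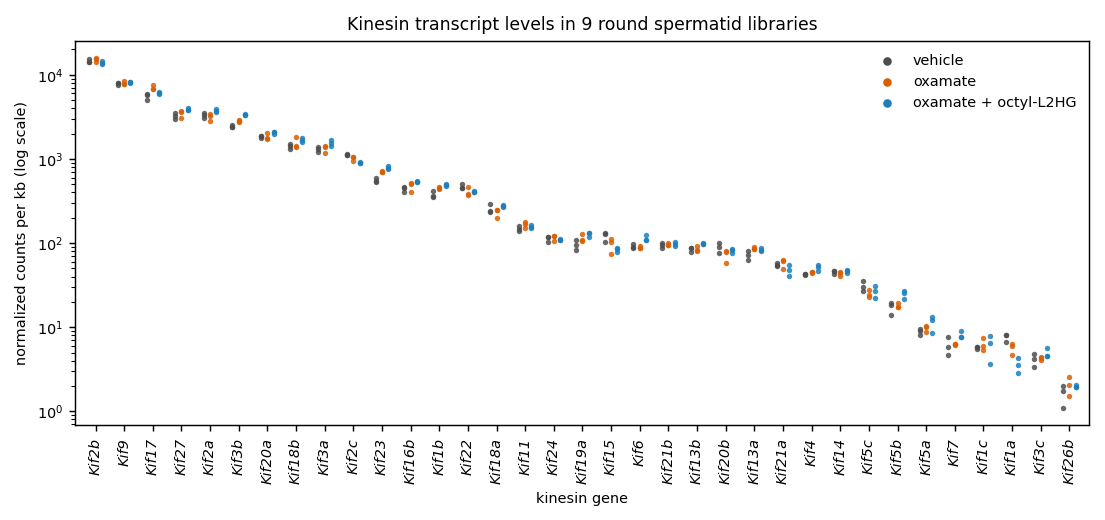
Normalized counts per kb of the longest annotated transcript (vertical axis, log scale) for the 35 kinesin genes with at least 100 summed counts, ordered by mean level on the horizontal axis. Each point is 1 of 9 libraries, coloured by group, and Kif2b, Kif9 and Kif17 stand at the left end in every group.

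Promoter sequence is given for the 4 kinesins that rose with oxamate and for Kif2c and Kif15, the spindle kinesins that fell with both compounds against vehicle, because CREM, with which KIF17 is linked in RS, binds the cAMP response element. Each line holds the 250 bases before the RefSeq start, 5′ to 3′ on the gene's strand, in build GRCm38.p6. Capitals mark matches on either strand to the cAMP response element TGACGTCA, its short core TGACG (which is contained in the full element), the cell cycle element TTTGAA, the CCAAT box CCAAT and the TATA box TATAAA. The windows are chr4:138262001-138262250 on the plus strand for Kif17, chr2:153291166-153291415 on the plus strand for Kif3b, chr9:61946800-61947049 on the minus strand for Kif23, chr4:149307734-149307983 on the minus strand for Kif1b (the upstream of its listed starts), chr4:117178773-117179022 on the minus strand for Kif2c and chr9:122950831-122951080 on the plus strand for Kif15.
Kif17: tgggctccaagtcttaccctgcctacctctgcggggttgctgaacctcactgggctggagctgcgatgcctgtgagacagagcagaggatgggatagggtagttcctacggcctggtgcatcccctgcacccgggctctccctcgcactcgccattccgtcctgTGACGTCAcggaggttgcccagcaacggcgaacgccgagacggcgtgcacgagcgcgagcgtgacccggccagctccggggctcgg
Kif3b: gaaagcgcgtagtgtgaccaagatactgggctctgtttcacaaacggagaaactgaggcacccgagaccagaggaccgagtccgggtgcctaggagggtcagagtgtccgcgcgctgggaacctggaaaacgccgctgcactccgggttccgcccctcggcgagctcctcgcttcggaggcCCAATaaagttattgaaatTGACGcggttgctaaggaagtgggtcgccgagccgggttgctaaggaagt
Kif23: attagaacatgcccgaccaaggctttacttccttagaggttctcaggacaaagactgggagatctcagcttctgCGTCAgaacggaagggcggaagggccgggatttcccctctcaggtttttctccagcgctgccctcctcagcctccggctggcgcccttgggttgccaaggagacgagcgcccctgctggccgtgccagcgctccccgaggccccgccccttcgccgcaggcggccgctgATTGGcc
Kif1b: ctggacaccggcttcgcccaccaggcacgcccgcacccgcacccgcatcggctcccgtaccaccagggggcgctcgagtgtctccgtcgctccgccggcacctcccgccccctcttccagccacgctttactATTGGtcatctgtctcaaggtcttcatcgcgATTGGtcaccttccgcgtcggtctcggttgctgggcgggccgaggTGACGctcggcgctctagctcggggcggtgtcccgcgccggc
Kif2c: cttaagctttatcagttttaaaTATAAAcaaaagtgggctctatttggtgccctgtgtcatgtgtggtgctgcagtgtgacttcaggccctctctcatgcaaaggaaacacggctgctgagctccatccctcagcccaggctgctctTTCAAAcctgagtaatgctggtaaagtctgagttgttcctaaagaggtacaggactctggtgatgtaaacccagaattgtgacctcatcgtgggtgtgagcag
Kif15: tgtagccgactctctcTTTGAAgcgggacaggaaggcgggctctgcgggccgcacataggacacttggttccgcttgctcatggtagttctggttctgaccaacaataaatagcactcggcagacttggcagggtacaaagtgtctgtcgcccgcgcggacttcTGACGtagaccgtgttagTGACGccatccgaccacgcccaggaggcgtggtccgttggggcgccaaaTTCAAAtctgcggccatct
The Kif17 window held a full cAMP response element whose first base was at position -86, counted back from -1 at the base before the start. The windows of Kif3b, Kif23 and Kif1b held the core only, at -50, -176 and -42, and that of Kif2c held neither. The core was also in windows of the other kinesins that fell with both compounds against vehicle, at -86 and -68 in Kif15 and at -8 in 1 of the windows of Kif1a. Of the further kinesins that rose in that comparison, Kif3a, Kif27, Kif16b and Kif6 had windows without the core. Whether the core goes with the direction of change was not tested. RefSeq gave 34 windows for 30 of the 38 kinesins. The windows of Kif1b overlap and share their matches, as do those of Kif9, so the windows are not independent. The full element was in 5.88% of them (Kif17 and Kif5c) and in 1.55% of the 32851 windows of all genes, and the core in 41.2% against 17.8%. TTTGAA was in 23.5% against 16%, CCAAT in 44.1% against 33.8%, and TATAAA in 14.7% against 12.4%. A match describes these letters and does not show a binding site.

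Oxamate was compared with vehicle to ask what inhibition of lactate dehydrogenase does to transcripts of RS. Of the 38 kinesins, 4 rose and 0 fell. Among all genes tested 3.97% were called higher and 1.22% lower. The 4 were Kif17 and Kif3b, which act in cilia, Kif23 of the spindle midzone, and Kif1b, a vesicle and mitochondrion motor. At an unadjusted p under 0.05 in edgeR's quasi-likelihood test 6 kinesins were higher (these 4, Kif13a and Kif19a) and 5 lower, against 2558 higher and 1790 lower of all 25128 genes. DESeq2 also called 4 higher and 0 lower. Other settings called kinesins lower: 3 were higher and 2 lower with no filter on low counts, 2 and 2 without vehicle 1 (Kif15 and Kif20b lower in both), 2 and 1 without oxamate 6 (Kif15 lower), and 2 and 1 with the length trend removed (Kif20b lower). At a mean of at least 100 normalized counts 4 of 29 kinesins were called, 13.8%, against 9.67% of all genes at that level. The median log2 fold change was 0.05 over the kinesins and -0.01 over all genes.

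Kif17 (ENSMUSG00000028758), a kinesin-2 motor, had 19638, 17442 and 20171 normalized counts with vehicle and 25866, 23415 and 23367 with oxamate. All oxamate libraries lay above all vehicle libraries. The log2 fold change was 0.35 ± 0.067 (SE, adjusted p = 0.0025), or 1.27-fold. Kif23 (ENSMUSG00000032254), part of the centralspindlin complex that bundles midzone microtubules and is found in the intercellular bridges of germ cells, rose by the same ratio. It had 1789, 1998 and 1845 with vehicle and 2368, 2355 and 2416 with oxamate, again with no overlap (0.35 ± 0.068, adjusted p = 0.00312). Both calls held in all 17 alternative settings.

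Kif3b (ENSMUSG00000027475), the partner of Kif3a in the heterotrimeric motor that drives anterograde intraflagellar transport, had 13465, 13651 and 14356 with vehicle and 15642, 15759 and 16165 with oxamate. The groups did not overlap, and the log2 fold change was 0.20 ± 0.058 (adjusted p = 0.0462). Kif1b (ENSMUSG00000063077) had 3749, 3593 and 4287 with vehicle and 4701, 4443 and 4577 with oxamate, also without overlap (0.24 ± 0.069, adjusted p = 0.0413). These calls were less firm than those of Kif17 and Kif23. That of Kif3b held in 3 of 17 alternative settings and that of Kif1b in 5, and both were lost when the trend of counts on transcript length was removed. Kinesin transcripts are long, with a median of 5434 bases against 2485 for all genes tested. At a mean of at least 100 normalized counts the medians were 5121 and 3002 bases. With the length trend removed the median log2 fold change was -0.01 over the kinesins and -0.02 over all genes. Without oxamate library 4, 7 kinesins were called, with Kif13a and Kif16b added as higher and Kif22 as lower. Without vehicle 2, oxamate 5, or any 1 of the libraries with both compounds, 2 were called.

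**Figure D2:**
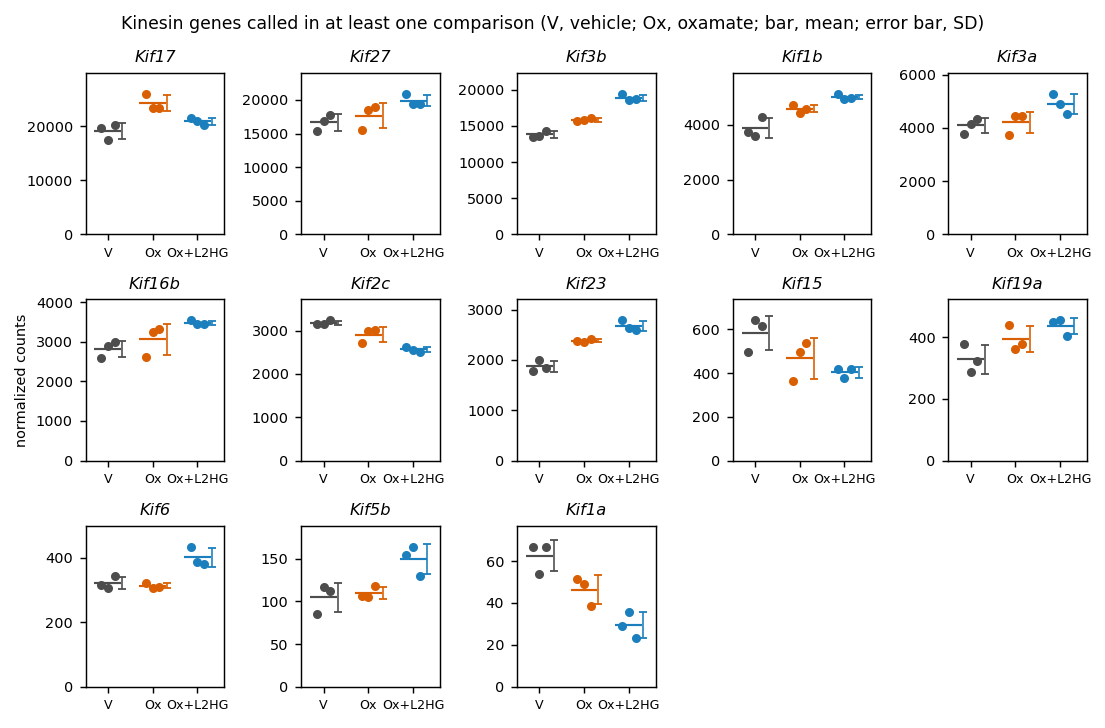
Normalized counts (vertical axis, from 0) of the 13 kinesin genes called in at least 1 comparison, with 1 point per library, the group mean as a bar and the SD as an error bar (n = 3). Kif17 is highest with oxamate alone, Kif3b, Kif23 and Kif1b step up from vehicle to oxamate to both compounds, and Kif2c and Kif1a step down.

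Octyl-L2HG with oxamate was compared with oxamate alone to ask what changes when L2HG is supplied to the inhibited cells. Kif3b and Kif6 rose and Kif17, Kif2c and Kif1a fell. These were 2 of 38 higher and 3 of 38 lower, against 3.18% and 8.06% of all genes. With DESeq2's size factors in the same edgeR fit 4 were higher and 2 lower. With no filter on low counts these were 6 and 1, and with the DESeq2 test 3 and 1. At the mean of at least 100, 4 of 29 kinesins were called, 13.8%, against 19.8% of all genes at that level. The median log2 fold change was 0.11 over the kinesins and -0.04 over all genes. This comparison shares the oxamate libraries with the one above, so the values of each are given side by side and no relation between them is drawn.

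Kif17 had 21480, 20998 and 20181 normalized counts with both compounds, below all 3 oxamate libraries and just above the highest vehicle library at 20171. It fell by 0.24 on the log2 scale against oxamate (SE 0.067, adjusted p = 0.0223), and against vehicle its difference of 0.11 ± 0.067 did not pass (adjusted p = 0.295). Kif3b was higher again with both compounds, at 19390, 18572 and 18722, above every oxamate library. Its log2 fold change against oxamate was 0.23 ± 0.058 (adjusted p = 0.0136).

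Kif6 (ENSMUSG00000023999), an axonemal relative of Kif9, had 316, 308 and 343 with vehicle, 322, 308 and 310 with oxamate, and 435, 388 and 381 with both compounds. Vehicle and oxamate overlapped, with a log2 difference of -0.04 ± 0.09 (adjusted p = 0.893), and all libraries with both compounds lay above them. Kif6 was 1.26-fold higher than with oxamate (0.33 ± 0.09, adjusted p = 0.0203). Kif2c (ENSMUSG00000028678), a depolymerase of the centromere and kinetochore, had 3143, 3149 and 3236 with vehicle, 2704, 2982 and 3025 with oxamate, and 2628, 2564 and 2515 with both. Neighbouring groups did not overlap. It fell by 0.20 against oxamate (SE 0.065, adjusted p = 0.0491), while the oxamate-to-vehicle difference of -0.13 ± 0.065 did not pass (adjusted p = 0.331). Kif1a (ENSMUSG00000014602), a vesicle motor of neurons, was low throughout, with 66.6, 54.0 and 66.9, then 51.4, 49.1 and 38.4, then 29.2, 35.7 and 23.4, with no overlap of groups. It fell by 0.70 against oxamate (SE 0.21, adjusted p = 0.0335), and oxamate differed from vehicle by -0.42 ± 0.18 (adjusted p = 0.211). The Kif2c call held in 3 of 17 alternative settings, that of Kif1a in 10, and those of Kif17, Kif3b and Kif6 in 12 each. The Kif1a call was lost with the DESeq2 test and with only the groups compared. Without oxamate library 4 the count was 10 in place of 5. Kif1a was lost there, and Kif13b, Kif15, Kif18b, Kif20a, Kif21a and Kif2b were added. The count of kinesins called was 0 without library 7, 1 without oxamate 5 or library 8, and 2 without library 9.

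Both compounds against vehicle gave the most kinesin calls. Of 38 kinesins 9 rose and 3 fell, against 7.48% and 10.6% of all genes tested. With total counts as the only scaling these were 5 and 4, and with the length trend removed 4 and 6. At a mean of at least 100, 11 of 29 were called, 37.9%, against 29.5% of all genes. The median log2 fold change was 0.16 over the kinesins and -0.05 over all genes. With the length trend removed it was 0.05 over the kinesins and -0.05 over all genes. The genes that rose were Kif3b, Kif3a, Kif27, Kif19a and Kif6 of the cilium, Kif23 of the midzone, and the cargo motors Kif1b, Kif16b and Kif5b. Those that fell were Kif15, Kif2c and Kif1a. The RS marker sum did not overlap between any of the 3 groups and was lowest with both compounds. Without oxamate library 4, 18 kinesins were called, with Kif13b, Kif18b, Kif21a, Kif22, Kif2a and Kif4 added.

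The smallest adjusted p-values belonged to Kif3b, at 1.35-fold (0.43 ± 0.058, adjusted p = 2.01e-05), and Kif23. Kif23 had 2785, 2641 and 2600 with both compounds, above all oxamate libraries, and was 1.40-fold above vehicle (0.49 ± 0.068, adjusted p = 2.52e-05). Its difference from oxamate did not pass (0.14 ± 0.068, adjusted p = 0.203). Kif1b had 5110, 4945 and 4988 and was 1.27-fold above vehicle (0.35 ± 0.069, adjusted p = 0.000939), with 0.11 ± 0.069 against oxamate (adjusted p = 0.385). Kif2c fell by 0.33 (SE 0.065, adjusted p = 0.00103). Kif1a fell by 1.12 (SE 0.20, adjusted p = 0.000315), a ratio of 0.459. Kif15 (ENSMUSG00000036768), a spindle motor that cooperates with Kif11, had 497, 641 and 617 with vehicle, 364, 498 and 540 with oxamate, and 417, 376 and 421 with both compounds. It fell by 0.55 against vehicle without overlap (SE 0.12, adjusted p = 0.00221), and its differences of -0.32 ± 0.12 with oxamate against vehicle and -0.23 ± 0.12 with both against oxamate did not pass (adjusted p = 0.132 and 0.271). The 6 calls of Kif3b, Kif23, Kif1b, Kif2c, Kif1a and Kif15 held in all 17 alternative settings.

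The other 6 genes rose by smaller or less firm amounts. Kif3a (ENSMUSG00000018395), the second motor subunit of intraflagellar transport, had 3786, 4147 and 4346 with vehicle, 3747, 4429 and 4456 with oxamate, and 5262, 4897 and 4520 with both. Kif27 (ENSMUSG00000060176), a kinesin linked to motile cilia, had 15342, 16793 and 17801, then 15497, 18546 and 18926, then 20842, 19457 and 19394. For both genes the libraries with both compounds lay above all others, and vehicle and oxamate overlapped. Their log2 fold changes against vehicle were 0.24 ± 0.077 for Kif3a (adjusted p = 0.0365) and 0.24 ± 0.074 for Kif27 (adjusted p = 0.0284). With oxamate against vehicle they were 0.05 and 0.09 (adjusted p = 0.84 and 0.599), and with both against oxamate 0.19 and 0.15 (adjusted p = 0.123 and 0.235).

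Kif19a (ENSMUSG00000010021), which limits the length of cilia by depolymerizing microtubules, had 378, 286 and 323 with vehicle, 441, 361 and 378 with oxamate, and 449, 455 and 406 with both compounds. It rose by 0.38 ± 0.11 against vehicle (adjusted p = 0.0133), with 0.26 (adjusted p = 0.187) and 0.12 (adjusted p = 0.548) for the steps through oxamate. Kif16b (ENSMUSG00000038844), a motor of early endosomes, had 2586, 2880 and 2985, then 2611, 3234 and 3324, then 3536, 3450 and 3442. Libraries with both compounds again lay above all others, and oxamate 4 lay within the vehicle range. Kif16b rose by 0.28 ± 0.08 (adjusted p = 0.0166), with 0.12 (adjusted p = 0.484) and 0.16 (adjusted p = 0.235) for the steps. Kif5b (ENSMUSG00000006740), a ubiquitous heavy chain of conventional kinesin, was low in RS, with 85.3, 117 and 112, then 106, 105 and 118, then 154, 164 and 130. The libraries with both compounds lay above the rest. It rose by 0.49 ± 0.14 (adjusted p = 0.0139), with 0.07 (adjusted p = 0.861) and 0.41 (adjusted p = 0.0527) for the steps. Kif6 rose by 0.29 ± 0.089 against vehicle (adjusted p = 0.0248). Kif3a, Kif27, Kif16b, Kif5b and Kif6 lost this call when the length trend was removed, and all but Kif5b also lost it with total counts as the scaling. Without vehicle library 1, 7 kinesins were called, and without library 7 or library 8 there were 6.

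**Figure D3:**
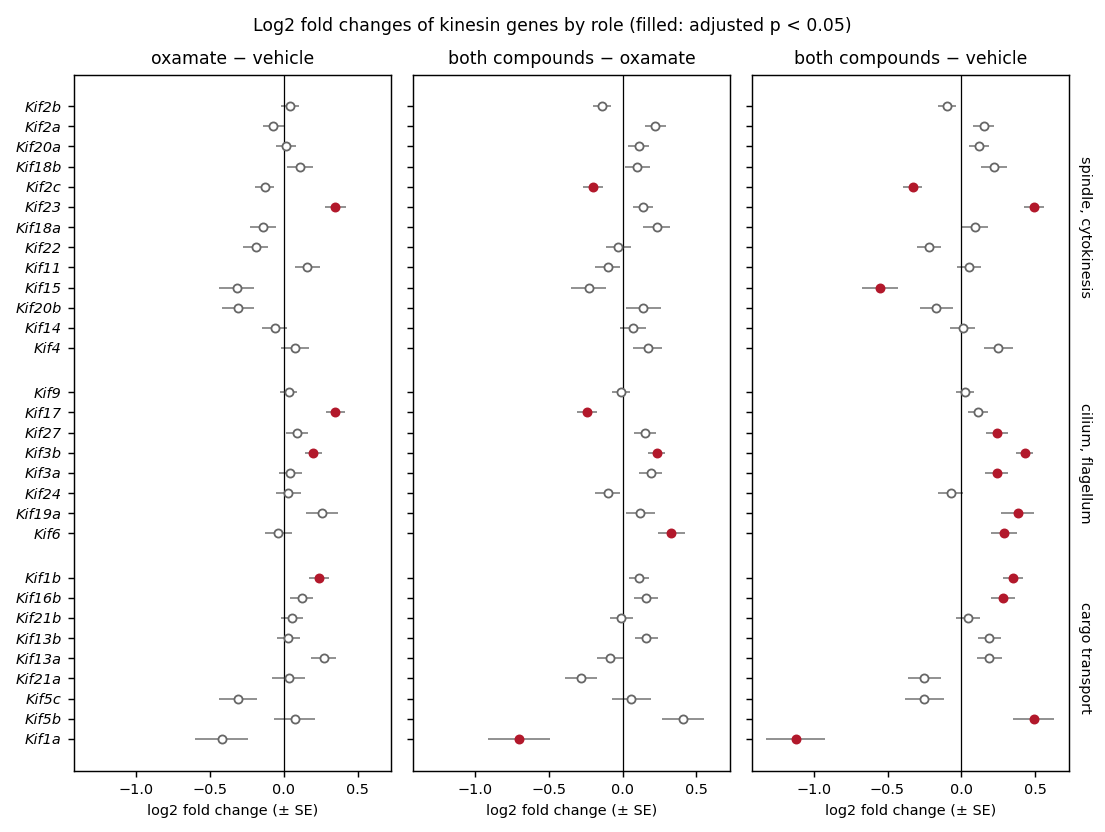
Log2 fold changes with SE (horizontal axis) of the 29 kinesin genes with a mean of at least 100 normalized counts, and of Kif1a, in the 3 comparisons, ordered by role and level. Filled points passed an adjusted p of 0.05 in edgeR's quasi-likelihood test: 4, 5 and 12 genes from left to right.

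By role, the cilium and flagellum kinesins were the group whose summed level did not overlap between any of the 3 treatments. The 9 genes summed to 77440 to 83505 normalized counts with vehicle, 88605 to 89137 with oxamate and 90666 to 93735 with both compounds. Kif9, Kif17, Kif27 and Kif3b make up most of this sum, and Kif9 was not among those called. From vehicle to oxamate the mean of Kif17 rose most of these, from 19083 to 24216. Kif9 and Kif27 overlapped between those groups. With both compounds the mean of Kif17 was lower again, at 20886, so the sum does not stand for a direction shared by the 9 genes. As CPM, scaled only by each library's total, the sums were 2231 to 2341, 2466 to 2509 and 2449 to 2464, so on this scale the libraries with both compounds lay just below those with oxamate. Kif7, a regulator of Hedgehog signalling in cilia, and Kif24, which restrains the formation of cilia, did not pass in any comparison. The 15 cargo kinesins summed to 9274 to 10483, 10435 to 11027 and 11537 to 11889, with overlap of vehicle and oxamate. Kif13a and Kif13b, which sort endosomal cargo, and Kif21a, Kif21b, Kif5a, Kif5c, Kif1c, Kif3c, Kif26a, Kif26b and Kif28 did not pass in any comparison.

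The 13 spindle and cytokinesis kinesins showed no common direction. Their sums were 70889 to 74224 with vehicle, 70028 to 75180 with oxamate and 72353 to 77335 with both compounds, and all 3 groups overlapped. Within this group Kif23 rose while Kif2c and Kif15 fell. Kif4, Kif11, Kif14, Kif18a, Kif20b and Kif22, which act on chromosome arms, spindle poles, spindle length or cytokinesis, did not pass in any comparison, like Kif2a, Kif2b, Kif18b and Kif20a. A test of any difference among the 3 groups called 11 of the 38 kinesins, or 28.9%, against 19.8% of all genes tested. At a mean of at least 100 it called 10 of 29, or 34.5%, against 33.5% of all genes at that level. Without oxamate library 4 it called 20, and without library 7 or 8 it called 7.

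**Figure D4:**
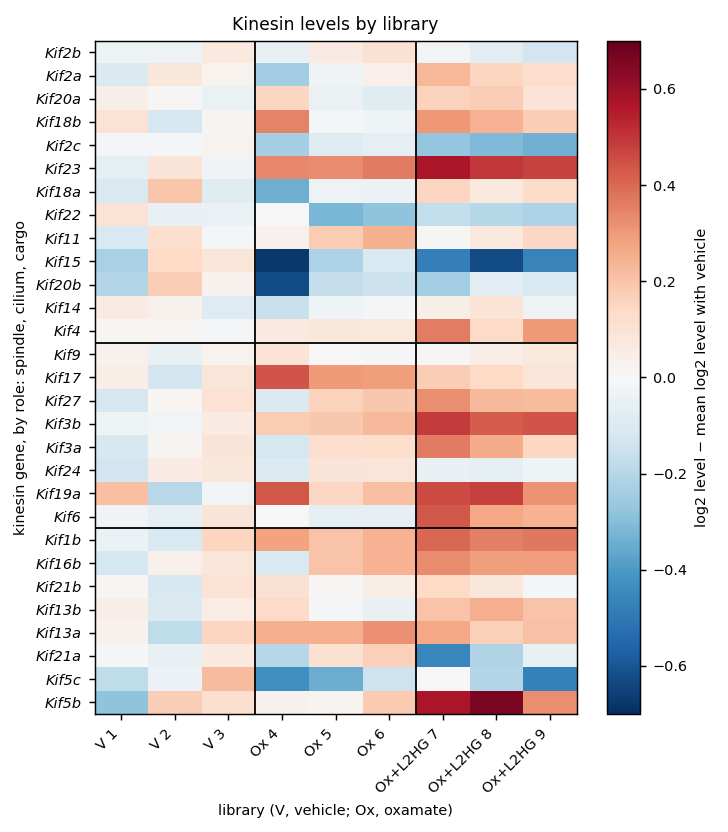
Log2 normalized count of 29 kinesin genes (rows, by role) in each library (columns) minus the mean log2 level with vehicle, with red higher and blue lower. Kif23, Kif3b and Kif1b are red in all 6 treated libraries, and oxamate 4 departs from oxamate 5 and 6 in many rows, among them Kif15, Kif20b and Kif18b.

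Adaptors, cargo and other motors that work with kinesins were taken from a list of 34 genes, of which 33 were tested. With oxamate against vehicle 2 rose and 0 fell, 6.06% called against 5.19% of all genes tested. At an unadjusted p under 0.05, 6 of 33 were higher and 1 lower, beside the 2558 and 1790 of all 25128 genes, and DESeq2 called 3 higher and 0 lower. Spag9 (JIP4), an adaptor that links kinesin-1 to its cargo, had 4198, 4601 and 4853 normalized counts with vehicle and 5091, 5729 and 5805 with oxamate (0.29 ± 0.069, adjusted p = 0.0153). Kifc3, a minus-end directed motor, had 1600, 1380 and 1438 against 2127, 1706 and 1693 (0.33 ± 0.087, adjusted p = 0.0276). Neither gene's groups overlapped. The other Kifc motors were low, with means of 145, 151 and 129 for Kifc1, 23.6, 19.5 and 30.1 for Kifc5b, and 15.3, 15.1 and 17.5 for Kifc2 with vehicle, oxamate and both compounds, and none was called in any comparison. With only the 2 groups compared in the fit, neither Spag9 nor Kifc3 passed. With any 1 library other than oxamate 4 left out, 1 of this pair passed. Kifc3 was lost without vehicle 2 or 3 or any 1 of the libraries with both compounds, and Spag9 without vehicle 1, oxamate 5 or oxamate 6. Without oxamate 4 both passed, and Kifbp was added.

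With both compounds against oxamate 2 partners rose and 1 fell, 9.09% called against 11.2% of all genes tested. Apba1 (Mint1) and Lin7a belong to the scaffold that joins KIF17 to its cargo in neurons, and Fhl5 encodes ACT, the CREM coactivator. Apba1 had 1931, 1850 and 1852 with oxamate and 2388, 2233 and 2297 with both compounds (0.27 ± 0.067, adjusted p = 0.011). Lin7a had 5337, 5286 and 5430 against 6553, 6279 and 6132 (0.21 ± 0.06, adjusted p = 0.024). Fhl5 had 5749, 5754 and 5468 with vehicle, 4696, 5195 and 4997 with oxamate, and 3813, 4075 and 4295 with both compounds, so that no groups overlapped. It fell by 0.31 against oxamate (SE 0.068, adjusted p = 0.00413), and its oxamate-to-vehicle difference of -0.19 ± 0.068 did not pass (adjusted p = 0.133). Crem (-0.09 with oxamate, adjusted p = 0.544), Lin7b and Lin7c, which are also linked to KIF17, did not pass in any comparison. Without oxamate library 4, 7 partners were called, with Arl8b, Klc2, Map7d3 and Plekhm2 added, and without oxamate 5 or library 7 there was 1.

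Against vehicle, both compounds raised 7 of the 33 partners (Apba1, Kifc3, Klc1, Map7d1, Plekhm2, Rab6a and Spag9) and lowered Fhl5 and Klc3, a kinesin light chain of the sperm tail. These were 27.3% of the list against 18% of all genes tested. Of all genes with a mean of at least 100 normalized counts 29.5% were called, but the list was not restricted to that level. Fhl5 fell by 0.50 (SE 0.068, adjusted p = 2e-05). Without library 8, 5 partners were called, and without oxamate library 4 there were 12, with Crem, Klc2 and Lin7c added. Kifap3, the third subunit of the Kif3a and Kif3b motor, had 16111, 17514 and 17690 with vehicle, 15536, 18472 and 19050 with oxamate and 18778, 17410 and 17506 with both compounds. The groups overlapped, and its log2 fold change with both compounds against vehicle was 0.04 ± 0.071 (adjusted p = 0.747), beside 0.43 for Kif3b and 0.24 for Kif3a.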

How the data were processed

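Poly(A) RNA of sorted RS was sequenced from KAPA stranded libraries (the labels name a NovaSeq 6000, the methods a NextSeq). Per the labels, the authors trimmed reads with cutadapt 2.10, aligned them with TopHat2 2.1.1, counted them with HTSeq 2.01 and normalized with DESeq2 1.36.0, and the build named for mouse is GRCm39. The strand setting of the counting is not given in the sources used here. The deposited table holds raw counts and normalized counts (a signal, the authors' counts divided by size factors of 0.867 to 1.13).

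Raw counts of genes with at least 10 summed counts were tested with edgeR 4.0.16 (R 4.3.3, TMM scaling, robust quasi-likelihood fit of all 9 libraries, group as the only term, Benjamini-Hochberg adjustment over 25128 genes). Called means an adjusted p under 0.05. Levels printed are the deposited normalized counts. Alternatives were DESeq2 1.42.0 as test and as size factors, total counts, filters, only the groups compared, removal of a trend on transcript length (known for 99.6% of genes), each library left out, and a threshold of 0.01. The steps were tested on simulated data. Values per library are given for every kinesin called and for the 8 with the highest mean, and partners are named where called in either comparison with oxamate. Members, lists and motifs were chosen with earlier results of these data known. Promoters and lengths come from RefSeq and GENCODE on GRCm38, and no coordinates were converted. Protein sequences were not used here.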

Additional observations from a re-analysis of the deposited data

How the results depend on the processing

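Among the kinesins, the count called with oxamate against vehicle was 4, and 2 with DESeq2's size factors, with total counts as scaling, with only the groups compared, or at an adjusted p under 0.01. Leaving out each library gave 2 to 7. For both compounds against oxamate, 5 became 0 at an adjusted p under 0.01 and 0 to 10 without 1 library. For both compounds against vehicle, 12 became 6 at 0.01 and 6 to 18 without 1 library. For any difference among the groups, 11 became 18 without a filter on low counts, 7 at 0.01 and 7 to 20 without 1 library. Partners called were 2, 3 and 9 in the 3 comparisons. With oxamate against vehicle they were 4 with filterByExpr, 0 with only the groups compared, 1 with the length trend removed and 0 at 0.01, and 1 to 3 without 1 library. The other partner counts were 1 and 5 at 0.01, with 1 to 7 and 5 to 12 without 1 library. The cause was not tested.

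Alternative fold changes were counted for the 13 kinesins called and the 5 partners called in a comparison that used the oxamate group (not the other 5 called partners). The counts pool differences that were called with ones that were not, and only the former could lose a call. Of these values 776 kept direction and call, 124 lost the call and 13 gained it. The other 5 changed sign, all in differences that were not called. With oxamate against vehicle, Kif3a was -0.0083 and Kif5b -0.056 without vehicle 1 (up to 0.12 and 0.16 without another library), and Kif5b was -0.017 with the length trend removed. With both compounds against oxamate, Kifc3 was -0.0023 without oxamate 5 and -0.011 without oxamate 6 (up to 0.17 without oxamate 4). Total counts as scaling moved the median log2 fold change of all genes with both compounds against vehicle from -0.05 to -0.11. No paired analysis was made because the labels number the libraries 1 to 9 and no number is shared between groups. Whether libraries pair by their order within the groups was not tested. Libraries left out of a group leave 2 samples, and genes below about 100 normalized counts, such as Kif1a, rest on few reads.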
